A study of Mus musculus with 6 samples.

Results

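The genes described here are 10 markers of oligodendrocyte precursor cells and of the stages that follow them, taken by gene symbol from the deposited table of normalized expression. They are Pdgfra, Cspg4, Ptprz1, Olig1, Olig2, Sox10, Gpr17, Bcas1, Enpp6 and Neu4, and all 10 were found among the 18058 genes of the table. Whole brainstems were snap-frozen from uninjected mice at 1 month of age, 3 wild type (WT, C57BL/6J) and 3 Rag1-/-, with 1 RNA library from each mouse. Rag1 encodes part of the enzyme that cuts and joins antigen receptor gene segments, and mice without it lack mature T and B cells throughout the body, from birth on. The Rag1-/- strain of the study is B6.129S7-Rag1tm1Mom/J, and the sex of each mouse is not given in the sources used here. Values are CPM, the reads of a gene scaled to a common library size.

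Oligodendrocyte precursors divide throughout the young brain and respond to platelet-derived growth factor through the receptor encoded by Pdgfra. Some of them leave the cell cycle, pass through a committed stage that carries Gpr17, Bcas1 and Enpp6, and become oligodendrocytes that wrap axons in myelin. The transcription factors Olig1, Olig2 and Sox10 are present along the whole path, so that in bulk tissue their transcripts come from precursors and from myelinating cells alike. Several of these genes are also read outside the lineage: Pdgfra in fibroblasts of the meninges, Cspg4 in pericytes, and Ptprz1 in astrocytes.

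The libraries held an estimated 31600000 to 46400000 reads, and even the lowest gene of the set, Neu4, stood for 627 to 1002 reads in each library. Rag1 itself gave 0.236, 0.388 and 0.115 CPM in WT, against 2.60, 4.02 and 2.90 CPM in the Rag1-/- labelled libraries. The targeted gene was thus higher where a loss is labelled. Gene totals do not show whether these reads cover the disrupted part of the gene, and every direction given below rests on those labels. WT replicates 1 and 2 held 172 and 177 CPM of Xist, and no other library held more than 2.93 CPM. Ddx3y, a gene of the Y chromosome, was at 0.283 and 0.215 CPM in those libraries and at 45.2 to 56.2 CPM in the others. By these transcripts WT replicates 1 and 2 were female and all other libraries male. Sex thus differs along with genotype in the comparisons below. Rag1-/- labelled replicate 2 was the lowest library for the hindbrain genes Hoxb3, Hoxb4 and Slc6a5, at 0.412, 0.222 and 8.3 CPM, against 2.5 to 7.86, 1.32 to 3.81 and 15.4 to 40.9 CPM in the other 5 libraries. The hindbrain gene Tph2 varied within both groups, at 30.7, 29.6 and 10 CPM in WT and 58, 22.7 and 12.3 CPM in the Rag1-/- labelled libraries. The forebrain gene Emx1 reached at most 0.165 CPM, and Tbr1 ran from 0.399 to 1.47 CPM. WT replicate 3 was the lowest library for Tph2 and the highest for Tbr1.

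Of the 10 genes, 5 were higher in each Rag1-/- labelled library than in any WT library. These were the transcription factors Olig1 and Sox10 and the committed-stage genes Gpr17, Bcas1 and Enpp6, with ratios of mean CPM between 1.12 for Olig1 and 1.28 for Enpp6. Each of the 5 had an unadjusted p under 0.05 in limma-trend, but none of the 10 had an adjusted p under 0.05 over the 16762 genes tested, where the smallest was 0.221, for Gpr17. Among all tested genes, 0.0477% had an adjusted p under 0.05. An unadjusted p under 0.05 with a higher level in the Rag1-/- labelled libraries was found for 2.27% of all tested genes, and 3.98% lay above WT in all 3 libraries. The precursor receptor Pdgfra and the surface protein Ptprz1 overlapped between the genotypes, as did Olig2 and Neu4. Cspg4 was lower in each Rag1-/- labelled library than in any WT library, a pattern that 14.4% of all tested genes showed. No gene of the set had an unadjusted p under 0.05 with a lower level, against 9.29% of all tested genes. These shares depend on the scaling, and with median-of-ratios rescaling 4.77% of all tested genes were higher and 4.34% lower at that p.

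**Figure D1:**
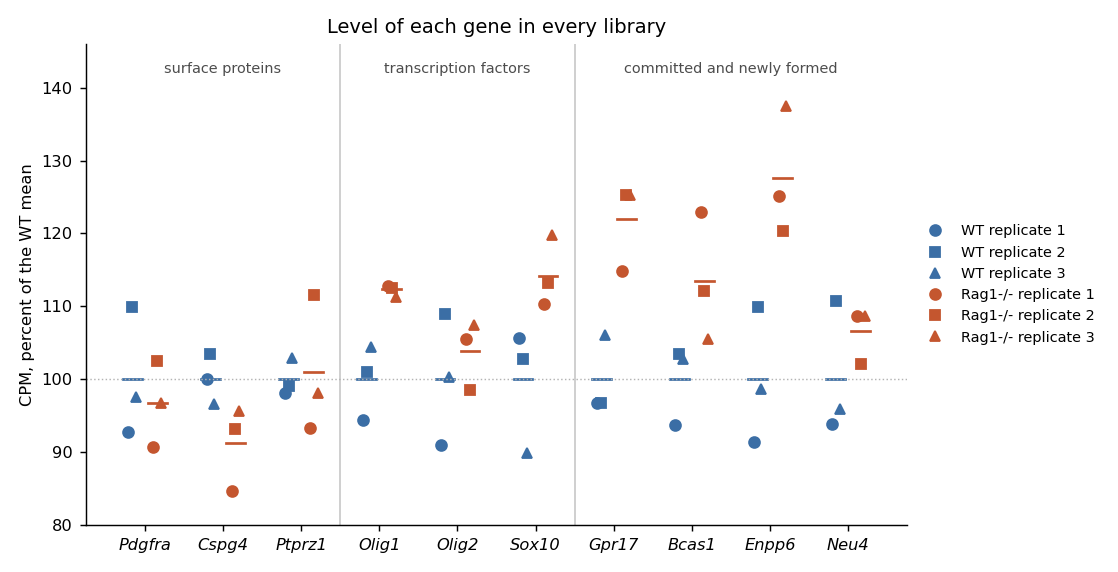
CPM of the 10 genes in each library, as percent of the mean of the 3 WT libraries, with short lines at the group means; the axis starts at 80 percent. Gpr17, Bcas1, Enpp6, Olig1 and Sox10 have all 3 Rag1-/- labelled libraries above WT, while Cspg4 has all 3 below.

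The sequence in front of the transcription start is shown for 4 genes, Enpp6 with the largest fold change of the set, Olig2 as a lineage factor, and Pdgfra and Cspg4 as precursor surface proteins that were not higher. RefSeq promoter sequences (GRCm38.p6, the assembly of mm10) were matched for 6 of the 10 genes, and Olig1, Sox10, Gpr17 and Bcas1 were not matched. Each sequence is the 250 bases that end just before the start of the gene, on the plus strand: chr8:46986637-46986886 for Enpp6, chr16:91225300-91225549 for Olig2, chr5:75152001-75152250 for Pdgfra and chr9:56864854-56865103 for Cspg4. For Enpp6 and Pdgfra the deposited start was not matched in a RefSeq gene list, and other starts were not examined. Capitals mark matches, on either strand, to the E-box CANNTG, which factors of the Olig family can bind, and to ACAAAG or ACAATG, forms of the motif bound by SOX factors.
Enpp6: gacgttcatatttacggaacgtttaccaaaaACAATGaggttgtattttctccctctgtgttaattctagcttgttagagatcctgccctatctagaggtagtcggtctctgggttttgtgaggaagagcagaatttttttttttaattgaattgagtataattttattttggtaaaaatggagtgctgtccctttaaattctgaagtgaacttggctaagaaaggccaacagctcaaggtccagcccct
Olig2: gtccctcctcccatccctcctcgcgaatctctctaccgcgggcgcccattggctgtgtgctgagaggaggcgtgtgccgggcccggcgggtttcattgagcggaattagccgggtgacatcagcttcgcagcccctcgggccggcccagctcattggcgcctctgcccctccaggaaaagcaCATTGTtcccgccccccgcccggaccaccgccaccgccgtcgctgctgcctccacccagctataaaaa
Pdgfra: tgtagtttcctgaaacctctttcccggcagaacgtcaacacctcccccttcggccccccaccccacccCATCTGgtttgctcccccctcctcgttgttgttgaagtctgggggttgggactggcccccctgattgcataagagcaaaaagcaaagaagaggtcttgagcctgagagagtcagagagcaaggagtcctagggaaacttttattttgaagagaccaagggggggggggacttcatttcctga
Cspg4: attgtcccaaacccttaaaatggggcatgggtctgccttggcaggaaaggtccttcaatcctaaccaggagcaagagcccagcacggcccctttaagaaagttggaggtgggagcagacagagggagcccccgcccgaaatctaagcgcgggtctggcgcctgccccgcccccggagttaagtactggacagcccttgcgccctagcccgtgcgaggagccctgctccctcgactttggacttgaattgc

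Enpp6 and Olig2 each held 1 SOX match and no E-box, Pdgfra held 1 E-box and no SOX match, and Cspg4 held neither. Of 32536 promoters of the same length, 66.2% held an E-box and 25.0% a SOX match, so these letters are common. The 4 windows also differed in base composition, from 38.4% G and C in Enpp6 to 66.8% in Olig2, with a median of 52.4% over all promoters.

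The surface proteins of precursors did not stand higher in the Rag1-/- labelled libraries. Pdgfra (chromosome 5, 75152251 to 75198206, plus strand) was at 62.1, 73.6 and 65.4 CPM in WT, in the order of their replicate numbers as in all values that follow, and at 60.8, 68.7 and 64.8 CPM in the Rag1-/- labelled libraries. The groups overlapped, with WT replicate 2 highest of all and Rag1-/- labelled replicate 1 lowest. Its log2 fold change was -0.05 (standard error 0.07, adjusted p = 0.817), and the 95% interval of the fold ran from 0.865 to 1.08. Without WT replicate 2 the log2 fold change was 0.02, and without WT replicate 1 it was -0.10.

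Cspg4 (chromosome 9, 56865104 to 56899870, plus strand), which encodes the NG2 proteoglycan, was at 31.9, 33 and 30.8 CPM in WT and at 27.0, 29.7 and 30.5 CPM in the Rag1-/- labelled libraries. All 3 were below WT, although the highest of them lay close to the lowest WT library. The means were 31.9 ± 1.10 and 29.1 ± 1.81 CPM (SD, n = 3). The log2 fold change was -0.14 (standard error 0.06, unadjusted p = 0.0501, adjusted p = 0.432). Single libraries moved this value, which was -0.09 without Rag1-/- labelled replicate 1 (unadjusted p = 0.179), -0.17 without Rag1-/- labelled replicate 3 (unadjusted p = 0.0347) and -0.16 without WT replicate 3 (unadjusted p = 0.0367). Over all tested genes the median log2 fold change was -0.05, and with median-of-ratios rescaling, which removes most of that shift, Cspg4 was at -0.09 and its groups overlapped.

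Ptprz1 (chromosome 6, 22875502 to 23052916, plus strand), a receptor tyrosine phosphatase that binds pleiotrophin, was at 204, 206 and 214 CPM in WT and at 194, 232 and 204 CPM in the Rag1-/- labelled libraries. WT lay inside the range of the other group, whose replicate 2 was the highest library. The log2 fold change was 0.01 (standard error 0.06, adjusted p = 0.970), with an interval of the fold from 0.909 to 1.11. It was -0.07 without that library and 0.06 without Rag1-/- labelled replicate 1, so that the sign of this value is not fixed by the data.

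Of the 3 transcription factors, Olig1 and Sox10 had each Rag1-/- labelled library above WT, as did 3.98% of all tested genes, and Olig2 overlapped. Olig1 (chromosome 16, 91269769 to 91271939, plus strand) was at 368, 394 and 407 CPM in WT and at 440, 439 and 434 CPM in the Rag1-/- labelled libraries. Those 3 had a coefficient of variation of 0.828%, the smallest of any group in the set, and all were above the highest WT library. The means were 390 ± 19.5 and 438 ± 3.63 CPM (SD, n = 3), and the log2 fold change was 0.17 (standard error 0.05, unadjusted p = 0.00621, adjusted p = 0.335).

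Sox10 (chromosome 15, 79154913 to 79164490, minus strand), a factor needed for the last steps of oligodendrocyte differentiation, was at 112, 109 and 95.3 CPM in WT and at 117, 120 and 127 CPM in the Rag1-/- labelled libraries. WT replicate 3 was low and Rag1-/- labelled replicate 3 was high, and the gap between the groups was 4.24 CPM. The log2 fold change was 0.20 (standard error 0.07, unadjusted p = 0.0147, adjusted p = 0.362). It was 0.13 without WT replicate 3.

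Olig2 (chromosome 16, 91225550 to 91228677, plus strand), which lies beside Olig1 and is required to specify the lineage, was at 78.5, 94.0 and 86.5 CPM in WT and at 91.0, 85 and 92.7 CPM in the Rag1-/- labelled libraries. The groups overlapped and the highest library was WT replicate 2. The log2 fold change was 0.06 (standard error 0.07, adjusted p = 0.769), with an interval of the fold from 0.934 to 1.16, which includes the fold of 1.12 seen for Olig1. It was -0.01 on the log2 scale without WT replicate 1 and 0.12 without WT replicate 2. The ratio of Olig1 to Olig2 within a library was 4.53 ± 0.290 in WT and 4.89 ± 0.248 in the Rag1-/- labelled libraries (SD, n = 3), which also overlapped (exact two-sided permutation test, p = 0.3).

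The largest fold changes of the set were those of Enpp6 and Gpr17, both of the committed stage, while Bcas1 and Neu4 lay below Sox10. Gpr17 (chromosome 18, 31942999 to 31949636, minus strand), a G protein-coupled receptor carried for a short time by precursors about to differentiate, was at 176, 176 and 193 CPM in WT and at 209, 228 and 228 CPM in the Rag1-/- labelled libraries. The lowest of the second group exceeded the highest WT library by 16 CPM. The means were 182 ± 10 and 222 ± 10.7 CPM (SD, n = 3), and the log2 fold change was 0.29 (standard error 0.05, unadjusted p = 0.000592, adjusted p = 0.221), and 44 of the other tested genes had a smaller p. Gpr17 overlaps Lims2 on the plus strand, a gene of the newly formed oligodendrocyte list that was at 25.3 to 30.3 CPM, and whether the counting used strand is not stated.

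Enpp6 (chromosome 8, 46986887 to 47096761, plus strand), a choline phosphodiesterase that marks oligodendrocytes as they form, was at 45.3, 54.5 and 48.9 CPM in WT and at 62.1, 59.7 and 68.2 CPM in the Rag1-/- labelled libraries. The groups were 5.22 CPM apart at their nearest libraries. The means were 49.6 ± 4.61 and 63.3 ± 4.39 CPM (SD, n = 3), and the log2 fold change of 0.35 (standard error 0.08, unadjusted p = 0.00128, adjusted p = 0.259) had an interval of the fold from 1.13 to 1.44.

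Bcas1 (chromosome 2, 170346991 to 170427845, minus strand), which marks precursors and newly formed oligodendrocytes that are starting to myelinate, was at 270, 298 and 296 CPM in WT and at 354, 323 and 304 CPM in the Rag1-/- labelled libraries. The groups did not overlap, but WT replicate 2 and Rag1-/- labelled replicate 3 were only 6.25 CPM apart. The log2 fold change was 0.18 (standard error 0.06, unadjusted p = 0.0202, adjusted p = 0.373), and without the trend the unadjusted p was 0.0583. Its antisense neighbour Bcas1os2 was at most at 0.313 CPM.

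Neu4 (chromosome 1, 94020493 to 94028330, plus strand), a sialidase, was at 18.3, 21.6 and 18.7 CPM in WT and at 21.2, 19.9 and 21.2 CPM in the Rag1-/- labelled libraries. The highest library of all was WT replicate 2. The log2 fold change was 0.09 (standard error 0.07, adjusted p = 0.644), with an interval of the fold from 0.948 to 1.2. It was 0.05 on the log2 scale without WT replicate 1, and 0.17 without WT replicate 2 (unadjusted p = 0.0353, adjusted p = 0.386).

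**Figure D2:**
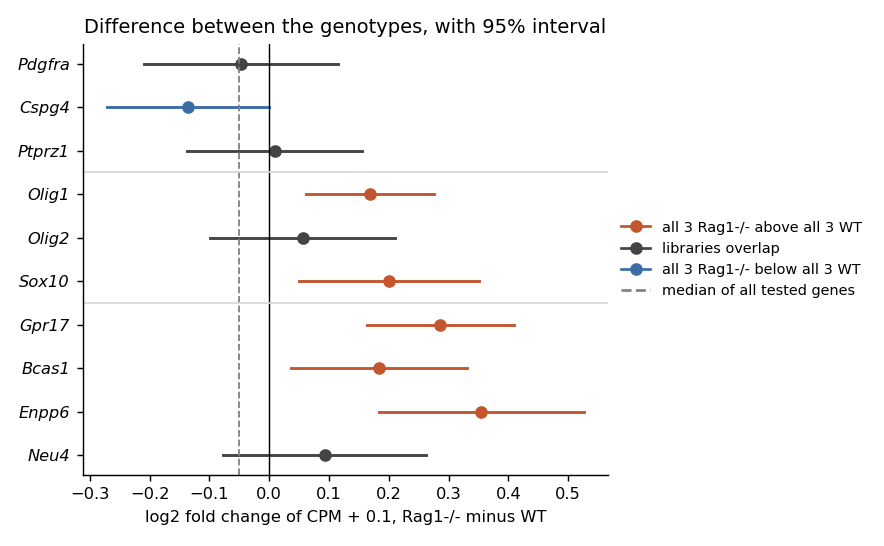
Log2 fold change of CPM + 0.1 between the genotypes for each gene (points) with its 95% interval from limma-trend (lines); the dashed line is the median of all 16762 tested genes, at -0.05. Enpp6 and Gpr17 lie farthest to the right, at 0.35 and 0.29, and Cspg4 farthest to the left, at -0.14.

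For genes whose groups do not overlap, the two-sided exact permutation p is fixed at 0.1, the lowest value possible with 3 samples against 3. With a term for libraries over 100 CPM of Xist added to the fit, 3 of the 10 genes had an unadjusted p under 0.05 in place of 5, all of them higher, as were 3.96% of all tested genes at that p. These were Sox10 with a log2 fold change of 0.35 (adjusted p = 0.0555), Enpp6 with 0.37 (adjusted p = 0.156) and Gpr17 with 0.20 (adjusted p = 0.193). Olig1 was at 0.11 and Bcas1 at 0.14 in that fit, in which the libraries low in Xist have WT replicate 3 as their only WT sample. Without Rag1-/- labelled replicate 2, the library low in Hoxb3, Hoxb4 and Slc6a5, 5 genes were higher with an unadjusted p under 0.05, as were 2.04% of all tested genes. With median-of-ratios rescaling, Olig1, Sox10, Gpr17, Bcas1 and Enpp6 again lay above WT in all 3 libraries, beside 8.02% of all tested genes.

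The balance between the committed stage and the precursor receptor was then taken within each library, where scaling has no effect. Gpr17 to Pdgfra, as a ratio of CPM, was at 2.83, 2.39 and 2.95 in WT and at 3.44, 3.31 and 3.51 in the Rag1-/- labelled libraries. Enpp6 to Pdgfra was at 0.730, 0.741 and 0.747 in WT and at 1.02, 0.869 and 1.05 in the Rag1-/- labelled libraries. Both ratios were higher in all 3 Rag1-/- labelled libraries (exact two-sided permutation test, p = 0.1 for each, the smallest possible). Against Cspg4, Gpr17 was at 5.70 ± 0.496 in WT and 7.63 ± 0.145 in the Rag1-/- labelled libraries (SD, n = 3). This ratio could not overlap, since Gpr17 was above WT and Cspg4 below WT in all 3 Rag1-/- labelled libraries. The same genes were also set against Mog, a protein of mature myelin. Gpr17 to Mog was at 0.590 ± 0.0657 and 0.589 ± 0.0250 (SD, n = 3; exact permutation p = 1), and Enpp6 to Mog was at 0.160 ± 0.00472 and 0.168 ± 0.00727 (SD, n = 3; exact permutation p = 0.2), so that the groups overlapped in both. These pairs were chosen after the values of the single genes were known.

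**Figure D3:**
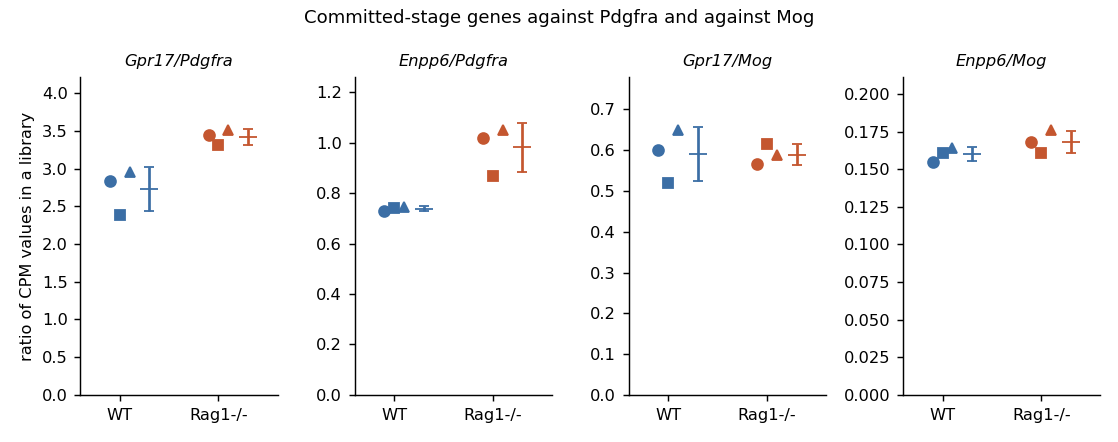
Ratio of CPM values within each library (points) for Gpr17 and Enpp6 against Pdgfra and against Mog, with the mean and SD of each group beside the points. The ratios to Pdgfra do not overlap between the genotypes, and the ratios to Mog do.

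Summed over the 4 committed-stage genes, the libraries held 509 to 557 CPM in WT and 621 to 647 CPM in those labelled Rag1-/-. The 3 transcription factors summed to 559 to 597 and to 644 to 653 CPM, and the 3 surface proteins to 298 to 313 and to 282 to 330 CPM. The median log2 fold change was 0.23 for the committed-stage genes, 0.17 for the transcription factors and -0.05 for the surface proteins, beside -0.05 for all tested genes. Over all 10 genes it was 0.13. In whole tissue, a different number of cells of a type and a different amount of RNA per cell cannot be told apart.

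Levels of different genes were compared per kilobase (kb) of the longest coding transcript that GENCODE links to RefSeq. Olig1 was the highest, at 180 ± 9.02 CPM per kb in WT (SD, n = 3), followed by Bcas1 at 97.5 ± 5.28, and these did not overlap with each other or with the next gene in any library. Sox10, Gpr17 and Olig2 followed at 38.9 ± 3.35, 35.0 ± 1.93 and 34.1 ± 3.07 CPM per kb, with overlapping ranges over the 6 libraries. Ptprz1 stood alone at 25.8 ± 0.597 CPM per kb. Enpp6 and Pdgfra overlapped at 9.97 ± 0.927 and 9.80 ± 0.865 CPM per kb in WT, but not in the Rag1-/- labelled libraries, where Enpp6 was at 12 to 13.7 and Pdgfra at 8.90 to 10.1 CPM per kb. Neu4 at 4.33 ± 0.401 and Cspg4 at 3.93 ± 0.135 CPM per kb in WT were the lowest. Cspg4 was below Neu4 within each of the 6 libraries. Their ranges overlapped in WT but not in the Rag1-/- labelled libraries, where Neu4 was at 4.4 to 4.71 and Cspg4 at 3.33 to 3.75 CPM per kb.

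**Figure D4:**
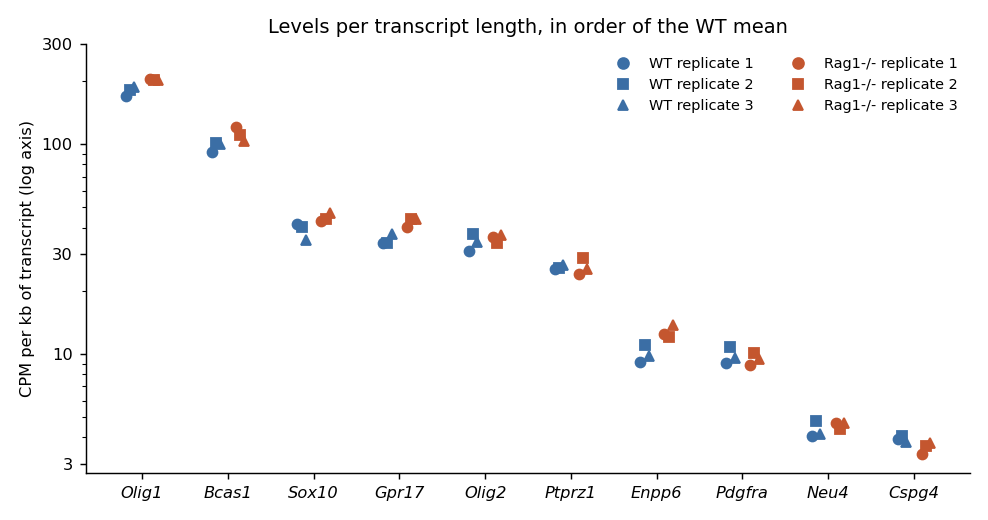
CPM per kb of transcript in every library, on a log axis, with genes in the order of the WT mean. Olig1 (180 CPM per kb in WT) lies above Bcas1 (97.5), and Cspg4 is the lowest gene in every library.

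Replicates varied by 2.31% to 9.30% of the mean in WT and by 0.828% to 9.35% in the Rag1-/- labelled libraries (coefficient of variation, n = 3 each), the extremes in the second group being Olig1 and Ptprz1. WT replicate 1 was the lowest WT library for Pdgfra, Ptprz1, Olig1, Olig2, Gpr17, Bcas1, Enpp6 and Neu4, and without it Bcas1 no longer had an unadjusted p under 0.05. The same held for Bcas1 without Rag1-/- labelled replicate 1, its highest library, and for Sox10 without Rag1-/- labelled replicate 3.

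Other genes of the lineage were read from lists that were chosen with earlier results of these data known. Of 22 further precursor genes, such as Vcan, Tnr, Pcdh15 and Lhfpl3, 0 had an unadjusted p under 0.05 in limma-trend in either direction, beside 11.6% of all tested genes, and their median log2 fold change was 0.03. None of the 12 proliferation genes did so either (median 0.04). Among 10 ligands of precursors, Bmp4, which holds back differentiation, was at 4.34 ± 0.550 CPM in WT against 5.36 ± 0.478 CPM in the Rag1-/- labelled libraries (SD, n = 3; unadjusted p = 0.0342, adjusted p = 0.403). Fgf2, a growth factor for precursors, was at 1.01 ± 0.170 and 0.663 ± 0.165 CPM (SD, n = 3; unadjusted p = 0.0392, adjusted p = 0.415). The other 8 ligands, Pdgfa among them, had an unadjusted p of 0.05 or more, so that 1 of the 10 was higher and 1 lower at that p, beside 2.27% and 9.29% of all tested genes.

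Of 15 further regulators of the lineage, 3 had an unadjusted p under 0.05, all higher in the Rag1-/- labelled libraries, beside 2.27% of all tested genes, and none had an adjusted p under 0.05. Zeb2, a factor needed for myelination, was at 89.7, 97.9 and 90.6 CPM in WT and at 101, 106 and 109 CPM in the Rag1-/- labelled libraries, without overlap (log2 fold change 0.18, adjusted p = 0.331). Zfp488, a zinc finger factor of the oligodendrocyte lineage, was at 9.15 ± 0.858 and 11 ± 1.2 CPM (SD, n = 3; unadjusted p = 0.0303, adjusted p = 0.395). The third was Nkx2-2. The median over these 15 genes was 0.10.

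The later stages of the lineage were read in the same way. Of 20 newly formed oligodendrocyte genes, 9 were higher with an unadjusted p under 0.05 and 0 lower, beside 2.27% and 9.29% of all tested genes, with a median log2 fold change of 0.14. The count of higher genes was 5 without WT replicate 2 and 5 without Rag1-/- labelled replicate 3, beside 2.35% and 2.29% of all tested genes. Sirt2, a deacetylase abundant in oligodendrocytes, was at 253, 269 and 274 CPM in WT and at 341, 341 and 333 CPM in the Rag1-/- labelled libraries. Its groups were far apart for their spread, and its log2 fold change of 0.35 (standard error 0.04) had an adjusted p of 0.0523, the smallest of any list. Rnf122 was at 22.5 ± 0.747 and 29.3 ± 2.05 CPM (SD, n = 3; unadjusted p = 0.000283, adjusted p = 0.193). Of 18 myelin genes, 12 were higher with an unadjusted p under 0.05 and 0 lower, beside the same 2.27% and 9.29%, with a median of 0.22. Gsn, which severs actin filaments, was at 330 ± 26.3 and 423 ± 18.9 CPM (log2 fold change 0.36, adjusted p = 0.211), and Mog at 310 ± 25.4 and 376 ± 10.4 CPM (SD, n = 3; log2 fold change 0.28, adjusted p = 0.258). None of these genes had an adjusted p under 0.05.

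Markers of the other cells in which these genes can be read were summed beside them. Meningeal fibroblast markers summed to 121 to 168 CPM in WT and 106 to 135 CPM in the Rag1-/- labelled libraries. Of these 9 markers, 2 were lower with an unadjusted p under 0.05 (Dcn and Col1a1), beside 9.29% of all tested genes, and the median log2 fold change was -0.14, beside -0.05 for all tested genes. The 9 pericyte and smooth muscle markers summed to 227 to 265 and 236 to 262 CPM (median 0.0030), the 9 microglia markers to 304 to 333 and 300 to 322 CPM (median -0.05), and the 10 neuron markers to 5701 to 6113 and 5630 to 6028 CPM (median -0.01), with no gene under an unadjusted p of 0.05. The 10 astrocyte markers summed to 4729 to 5086 and 5088 to 5260 CPM, which all but touched, with a median log2 fold change of 0.03. Their fold changes went both ways, 6 above 0 and 4 below. Of these 10, only Aqp4 was higher with an unadjusted p under 0.05 (unadjusted p = 0.0185, adjusted p = 0.372), beside 2.27% of all tested genes, and 0 were lower. All markers of these lists were detected. Their part in the values of Pdgfra, Cspg4 and Ptprz1 was not tested.

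**Figure D5:**
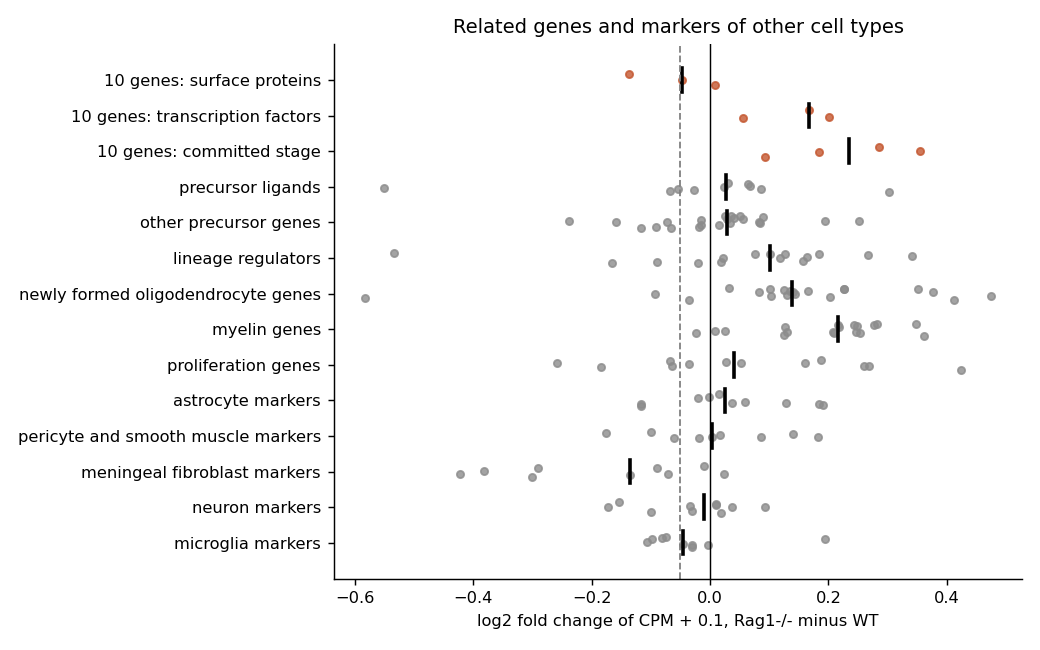
Log2 fold change of each gene (points) by list, with the list median (black bar), a line at 0 and a dashed line at the median of all tested genes; the vertical place within a list carries no value. The medians of the committed-stage genes (0.23) and of the myelin genes (0.22) lie to the right of those of the further precursor genes (0.03) and of the neuron markers (-0.01). Single genes of these lists overlap.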

How the data were processed

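Gene expression was measured by RNA sequencing of 3 WT and 3 Rag1-/- brainstems. The authors aligned reads to mm10 (RefSeq) with STAR 2.5.3a, the version in the submitters' processing notes, counted them per gene in Partek Flow and deposited CPM values, in which the lowest is 0.0001. Any filter on genes before deposit, the strand setting and the library kit are not given in the sources used here. Coordinates are those of the deposited table, with the end 1 base before the deposited stop.

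The 10 genes and all lists were chosen with earlier results of these data known; all 10 are named, and from each list of related genes at most 2 with the smallest unadjusted p under 0.05, besides examples, and marker genes named after their values were seen (Dcn, Col1a1, Aqp4, Nkx2-2). Log2(CPM + 0.1) was tested wherever the mean reached 0.1 CPM, by limma-trend (limma 3.58.1, R 4.3.3), two-sided, with Benjamini-Hochberg adjustment over all 16762 genes, and the 10 genes all passed this filter. Fold intervals come from this fit, and ratios of means are of CPM. All p-values in the text named as adjusted or unadjusted come from limma-trend, except that of Bcas1 without the trend, which comes from limma.

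Low values fall on a ladder whose step stands for 1 read. Only 84.2% to 86.0% of low values fell on it (tolerance 0.1 read), so the table cannot be turned back into reads, no count test was run, and depths are estimates. Deviations from the group means were not shared by same-numbered samples (correlations over genes of 0.0926, -0.220 and -0.0183). The labels state independent mice.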

Additional observations from a re-analysis of the deposited data

How the results depend on the processing

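The number of the 10 genes with an adjusted p under 0.05 was 0 under each alternative, and it stayed 0 when any 1 library was left out. The number with an unadjusted p under 0.05 in either direction was 5, beside 11.6% of all tested genes. It was 3 with a term for libraries over 100 CPM of Xist (Xist term), beside 16.3%, and from 4 to 6 with a library left out, beside 6.63% to 12.1%. It was 4 without the trend, beside 9.79%, where Bcas1 had an unadjusted p of 0.0583 in limma. With no filter it was 6, beside 11.3%, where Cspg4, lower, had an unadjusted p of 0.0493 in limma-trend. Cspg4 is also among those counted without WT replicate 3 and without Rag1-/- labelled replicate 3. The median log2 fold change of the 10 genes was 0.13, from 0.12 to 0.17 under the settings that kept all libraries and from 0.09 to 0.17 with a library left out.

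Over all tested genes, 8 had an adjusted p under 0.05. There were 4 with pseudocount 0.01, 4 with no filter, 4 with the filter raised to a mean of 1 CPM, 5 after quantile normalization, 2 without the trend, 3 with the replicate block and 134 with the Xist term. Leaving out 1 library gave from 2 to 24, the 24 without WT replicate 3. What causes these shifts was not tested.

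Of all genes with an unadjusted p under 0.05, 380 were higher and 1558 lower. With median-of-ratios rescaling the split was 800 and 727, and with quantile normalization 855 and 640. Olig1, Sox10, Gpr17, Bcas1 and Enpp6 were the 5 genes above WT in all 3 libraries under both, beside 8.02% and 8.71% of all tested genes. Cspg4 overlapped under both. The replicate block, in samples that share only a number, gave 5 of the 10 genes with an unadjusted p under 0.05, beside 8.1% of all tested genes.

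Of 160 values of single genes under the alternatives, 5 changed sign and the rest kept their direction. Ptprz1 was -0.029 with the Xist term and from -0.065 to 0.064 with a library left out, Pdgfra from -0.10 to 0.022 and Olig2 from -0.011 to 0.12. Enpp6 ranged from 0.29 to 0.43 and Gpr17 from 0.20 to 0.33 over all alternatives, with adjusted p from 0.141 to 0.709 and from 0.0857 to 0.483. The planned count test was left out for lack of whole reads. The lowest of these genes stood for an estimated 627 reads or more in each library, and an effect of depth on them was not tested.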
